A study of Homo sapiens with 4 samples.

Results

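The genes described here are the p53 family and p53 target genes on arrays of FDXR-depleted T47D cells, a human ER+ breast cancer line. They were chosen by symbol: TP63, TP73, CDKN1A, MDM2, BAX, BBC3, TP53I3, TP53INP1 and GDF15. Of these 9 symbols, 6 had a named probe (TP73, BAX, BBC3, TP53I3, TP53INP1 and GDF15), out of 14679 named genes in all, each with 1 probe. No probe is named for TP63, CDKN1A or MDM2, nor for FDXR. These genes were not analysed here, so the depletion of FDXR was not checked on these arrays. The paper measured FDXR by Q-PCR and immunoblot in T47D cells with the same hairpin. The study compared T47D cells infected with virus encoding shControl with cells infected with virus encoding FDXR sh434, 1 hairpin against the ferredoxin reductase mRNA, to learn which genes depend on FDXR. The labels name no other treatment of either group, both grown in medium with fetal bovine serum, and each group was measured on 2 Affymetrix arrays that the submitters call biological replicates. The labels speak of a retrovirus and the paper of a lentivirus, and the source names of 3 arrays give other cell line names than T47D, while the growth protocol of all 4 names T47D. Which cultures the replicates came from is not said, so the p-values below measure the spread between these arrays.

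p53 is a transcription factor that is stabilised by DNA damage and other stress, and it switches on genes of cell cycle arrest, apoptosis, DNA repair and metabolism. MDM2, itself a target, marks p53 for degradation, and TP63 and TP73 are its relatives that bind similar DNA sequences. FDXR, the mitochondrial flavoprotein that passes electrons from NADPH to ferredoxin, is a p53 target too, and in human cell lines and in mice it has been linked back to p53 through the iron regulatory protein IREB2.

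Sequences that resemble the DNA element bound by p53 are shown for the measured genes that held one near a transcription start, and for FDXR, the depleted gene. In RefSeq windows of 250 bases before to 50 bases after a start (build GRCh38.p14), a script searched for the p53 response element, a pair of p53 half-sites joined without a gap, with both CNNG cores intact and at most 3 other mismatches. The consensus reads the same on both strands. Windows were found for 8 of the 9 listed genes, all but TP53INP1. Of 35116 windows of all genes, 1.12% held such a match and 0.285% held one with at most 2 mismatches. Among the measured genes, a match was found in an internal TP73 window, with 2 mismatches, 76 bases before the start (chr1:3690576-3690635, plus strand), and in the GDF15 window, with 3 mismatches, from base 29 after the start (chr19:18386181-18386207, plus strand). The first FDXR window held a match with 3 mismatches, 21 bases before the start (chr17:74872976-74873035, minus strand). MDM2, which was not measured, also had a match, and the windows of BAX, BBC3 and TP53I3 held none. In the sequences the capitals mark the match.
TP73: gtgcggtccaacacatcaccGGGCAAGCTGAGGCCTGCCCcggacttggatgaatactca
GDF15: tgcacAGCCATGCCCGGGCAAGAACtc
FDXR: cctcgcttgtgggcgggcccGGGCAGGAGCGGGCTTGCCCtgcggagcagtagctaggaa
These matches are descriptions of sequence, and binding of p53 to them was not measured here.

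At an adjusted p of 0.05 from limma, 0 of the 6 genes were higher and 0 lower in FDXR sh434 cells, against 0.388% of named genes higher and 0.395% lower, and 0.298% and 0.402% of all probes. The RNA came from whole cultures, so fewer cells of a kind and less RNA per cell cannot be told apart. Their log2 fold changes, FDXR sh434 minus shControl, ranged from -0.23 for TP53INP1 to 0.41 for GDF15, with a median of 0.03, against a median of 0.029 over all named genes. At an unadjusted p of 0.05, 1 was higher (GDF15) and 0 were lower, against 12.5% and 7.51% of named genes. When limma let the spread between arrays follow the signal, with robust estimation (called the signal-dependent spread below), GDF15 passed and the other 5 did not, against 7.42% of named genes higher and 3.88% lower. The arrays of the groups did not overlap for 1 gene that was higher and 2 that were lower in FDXR sh434 cells, against 31.5% and 22.4% of named genes. With 6 genes, each of these counts differs from the background share by no more than 1 gene. The smallest absolute log2 fold change of any named gene that passed was 0.81 in limma and 0.17 with the signal-dependent spread, so limma called no named gene with a change as small as those of the 6 genes.

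**Figure D1:**
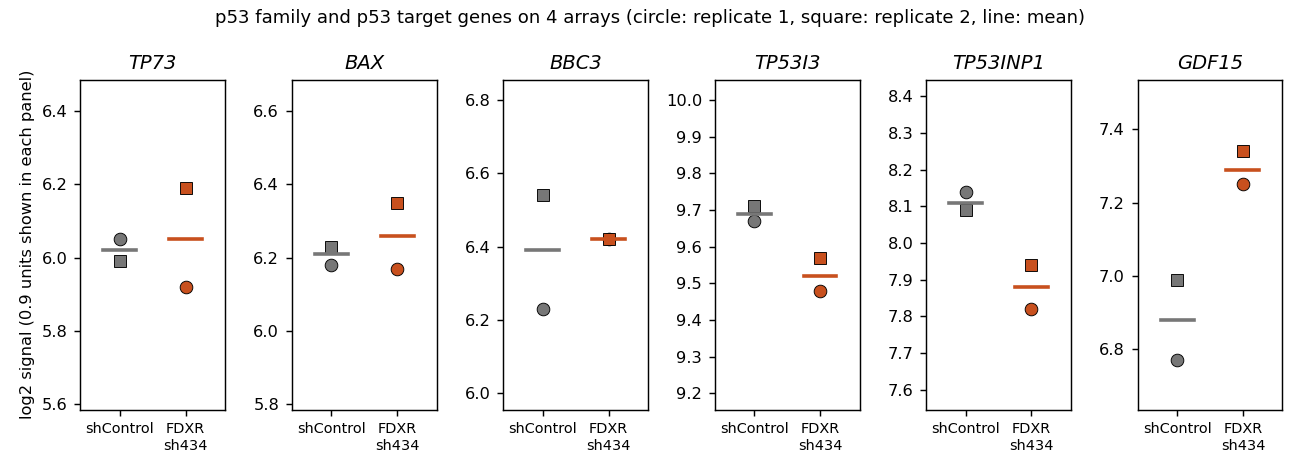
Log2 signal (y axis, 0.9 units in each panel) of the 6 measured genes on the 4 arrays; points are single arrays (circle, replicate 1; square, replicate 2) and lines are means of 2 arrays. The groups overlap for TP73, BAX and BBC3, and the FDXR sh434 arrays lie below the shControl arrays for TP53I3 and TP53INP1 and above them for GDF15.

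GDF15 is a secreted cytokine of the TGF-beta superfamily that rises under cell stress, through p53 and also through ATF4, the transcription factor of the integrated stress response. The gene lies at chr19:18386158-18389176 (GRCh38.p14). Its log2 signal was 6.77 and 6.99 in shControl cells, and 7.25 and 7.34 in FDXR sh434 cells. Both FDXR sh434 arrays were above both shControl arrays, while the shControl arrays differed from each other by 0.22 and the FDXR sh434 arrays by 0.085. The log2 fold change was 0.41 with a standard error of 0.124 and a 95% interval of 0.10 to 0.72, or 1.33-fold higher (adjusted p = 0.194 from limma). With the signal-dependent spread the adjusted p was 0.0359. This call was lost without any one of shControl replicate 1, FDXR sh434 replicate 1 or FDXR sh434 replicate 2, with an adjusted p of 0.0702, 0.208 and 0.309, and was kept without shControl replicate 2 (adjusted p = 0.00749). Of all named genes, 88.7% had a smaller absolute log2 fold change than GDF15.

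TP53INP1 (chr8:94925972-94949378) encodes a stress-induced protein that takes part in autophagy and apoptosis. Its log2 signal was 8.14 and 8.09 in shControl cells and 7.82 and 7.94 in FDXR sh434 cells, so that the groups did not overlap. The log2 fold change was -0.23 (standard error 0.108, 95% interval -0.50 to 0.04, adjusted p = 0.355 from limma), and the adjusted p was 0.112 with the signal-dependent spread. TP53I3 (PIG3, chr2:24077433-24084834), a quinone oxidoreductase linked to reactive oxygen species, had a probe brighter than 98.0% of all probes. It was at 9.67 and 9.71 in shControl cells and at 9.48 and 9.57 in FDXR sh434 cells. The groups lay apart by little more than the arrays of 1 group, which differed by 0.043 and 0.084. The log2 fold change of TP53I3 was -0.16 (standard error 0.104, 95% interval -0.42 to 0.10, adjusted p = 0.488). Both genes kept a negative log2 fold change in the alternatives run, leaving out each array included, and neither passed in any of them.

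BAX (chr19:48954875-48961798), the BCL2 family protein that permeabilises the outer mitochondrial membrane, was at 6.18 and 6.23 in shControl cells and at 6.17 and 6.35 in FDXR sh434 cells. BBC3 (PUMA, chr19:47220824-47232860), which frees BAX by binding its inhibitors, was at 6.23 and 6.54 in shControl cells and at 6.42 on both FDXR sh434 arrays. For both genes the groups overlapped, and the means differed by less than the arrays of the more variable group. The log2 fold change was 0.05 for BAX (standard error 0.116, 95% interval -0.24 to 0.34, adjusted p = 0.859 from limma). For BBC3 it was 0.03 (standard error 0.137, 95% interval -0.31 to 0.38, adjusted p = 0.931), and it turned to -0.02 after quantile normalization. The 2 shControl arrays set the BBC3 value: it was -0.12 without shControl replicate 1 and 0.19 without shControl replicate 2. A rise to 1.30-fold or a fall to 0.807-fold of BBC3 lies at the bounds of the interval, and for BAX the bounds were 0.848-fold and 1.27-fold.

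TP73 (chr1:3652516-3736201), the only p53 family member measured, is transcribed from a first and an internal promoter, and the internal one gives shorter proteins that oppose p53. The probe stands for the gene as a whole and does not tell these forms apart. TP73 was at 6.05 and 5.99 in shControl cells and at 5.92 and 6.19 in FDXR sh434 cells. The FDXR sh434 arrays lay on both sides of the shControl arrays and differed from each other by 0.27. The log2 fold change was 0.03 (standard error 0.130, 95% interval -0.29 to 0.36, adjusted p = 0.929 from limma), and -0.01 after quantile normalization. Without FDXR sh434 replicate 2 it was -0.10, and without FDXR sh434 replicate 1 it was 0.17.

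**Figure D2:**
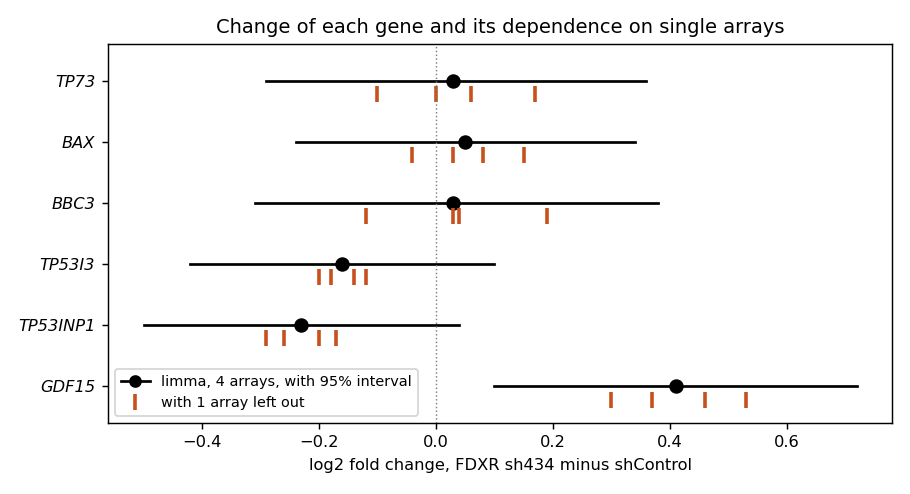
Log2 fold change, FDXR sh434 minus shControl (x axis), of the 6 genes from limma on 4 arrays, with its 95% interval (line), and the values with 1 array left out (ticks). The interval lies above 0 for GDF15, from 0.10 to 0.72, and holds 0 for the other 5.

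All 10 measured luminal markers, such as GATA3, PGR and KRT19, were brighter than the median probe (4.76), with mean log2 signals of 6.57 to 11.17, while 3 of 4 measured basal or myoepithelial markers were under it, KRT5 and KRT14 among them. By limma 0 of either list passed. With the signal-dependent spread 2 luminal markers were higher, SPDEF at 0.52 (adjusted p = 0.00578) and KRT18 at 0.26 (adjusted p = 0.0105). In that fit 1 was lower, PGR at -0.75 (adjusted p = 8.26e-05), and 7.42% of all named genes were higher and 3.88% lower. It gave these 3 bright genes smaller standard errors than limma without it. They went from 0.132 to 0.0846 for SPDEF, from 0.104 to 0.0488 for KRT18 and from 0.108 to 0.0542 for PGR. CD14, the 1 blood marker measured, was also under the median probe. Of 5 measured mesenchymal markers 2 were under it, and FN1, VIM and LUM were above it, with mean log2 signals of 6.66, 5.08 and 5.02. Among these 5 mesenchymal markers 1 was higher and 1 was lower by limma, where 0.388% and 0.395% of all named genes were. They were FN1 (fibronectin), with a log2 fold change of 1.21 (adjusted p = 0.0258), and LUM (lumican), with -1.86 (adjusted p = 0.0213). Summed log2 signals of the mesenchymal list were 22.7 and 22.8 in shControl cells and 21.45 and 22.41 in FDXR sh434 cells, and the part of these genes in the results for the p53 targets was not tested. Array medians were 4.76 to 4.78, and 115 probes were higher and 155 lower among 38598 tested by limma.

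The other genes of the p53 pathway were taken from lists that hold 174 symbols, of which 112 were measured, some in more than 1 list. Of these 112 genes, 1 was higher and 0 were lower by limma, where 0.388% and 0.395% of all named genes were. At an unadjusted p of 0.05, 14 were higher and 17 lower, where 12.5% and 7.51% of all named genes were. With the signal-dependent spread 10 were higher and 19 lower, which is 8.93% and 17.0% of the genes, beside 7.42% and 3.88% of all named genes. The lists were written with earlier results of these data known, and 10 of the 112 genes lay under the median signal. In this fit the standard error went from 0.102 to 0.0519 for the bright TOP2A and from 0.111 to 0.167 for the dim KRT5. Shares among named genes of like signal were not computed. The lists mix genes that p53 raises with genes that it lowers and with targets of ATF4. Of the 56 measured p53 targets among them, 4 were higher and 8 lower, or 7.14% and 14.3%. The median log2 fold change of the 112 genes was 0.02. Leaving out FDXR sh434 replicate 1 or FDXR sh434 replicate 2 took these counts down to 3 higher and 2 lower or 3 higher and 1 lower. Over all probes the counts fell in the same fits, from 1937 higher and 1318 lower to 294 and 347 or to 347 and 364. Apart from KITLG, the genes said below to pass with the signal-dependent spread did not pass in limma without it. With 1 array left out, KITLG and PLK2 kept that call in all 4 fits, DCP1B, RRM2B, PCNA, PSAT1 and DDIT4 in 3, PANK1 and CDC25A in 0, and the other genes named below that passed in 1 or 2.

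KITLG (stem cell factor), the ligand of the KIT receptor and a p53 target in skin, was the 1 gene of the 112 that passed in limma. Its log2 signal was 6.60 and 6.33 in shControl cells and 7.86 and 8.01 in FDXR sh434 cells. Each FDXR sh434 array was far above each shControl array, and KITLG rose 2.77-fold, a log2 fold change of 1.47 (standard error 0.137, 95% interval 1.13 to 1.81, adjusted p = 0.0274). With the signal-dependent spread it also passed (adjusted p = 9.56e-05), and its log2 fold change stayed positive in all 4 fits without 1 array. When 1 array was left out, limma without that spread lost its calls over all probes, that of KITLG among them. Limma with the replicate number as a block gave KITLG an adjusted p of 0.0731, in a fit where 0 of all probes passed. KITLG stands in a list of 20 measured p53 targets with other roles. Of these, 10.0% (2 genes) were higher and 5.0% (1 gene) lower with the signal-dependent spread, beside 7.42% and 3.88% of named genes. DCP1B, an mRNA decapping protein, had a log2 fold change of 0.84 (adjusted p = 0.00543 there) and SUSD6 one of -0.51 (adjusted p = 0.0265). The brightest genes of the list that passed in neither fit were PLXNB2, a semaphorin receptor, at 0.19 and NINJ1, which ruptures the membranes of dying cells, at -0.09.

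Of the p53 targets of apoptosis and autophagy, 12 were measured, and 0 were higher and 3 lower with the signal-dependent spread, with a list median of 0.01. In the same fit 7.42% of all named genes were higher and 3.88% lower. PMAIP1 (NOXA), which binds and disables the survival protein MCL1, was at 5.51 and 5.75 in shControl cells and at 4.81 and 4.93 in FDXR sh434 cells. This is a log2 fold change of -0.76 (adjusted p = 0.0775 from limma, and 0.00974 with the signal-dependent spread). The groups lay well apart, and 59.3% of probes were dimmer than that of PMAIP1. TRIM22, which is also induced by interferon and restricts viruses, had a dim probe under the median signal, with 48.7% of probes dimmer. Its log2 fold change was -0.75 (adjusted p = 0.0591 from limma, and 0.0113 with the signal-dependent spread). DRAM1, a lysosomal membrane protein of autophagy, had one of -0.46 (adjusted p = 0.123, and 0.00904). BCL2L1 (BCL-XL), an inhibitor of apoptosis, at 0.18, and APAF1, the scaffold of the apoptosome, at 0.09, passed in neither fit.

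Of the p53 targets of DNA repair only 4 were measured, and 2 were lower and 0 higher with the signal-dependent spread. Among all named genes 3.88% were lower and 7.42% higher in that fit. RRM2B, the p53-induced subunit of ribonucleotide reductase, was at 7.94 and 7.74 in shControl cells and at 7.33 and 7.08 in FDXR sh434 cells. Its log2 fold change was -0.64 (adjusted p = 0.117 from limma, and 0.0064 with the signal-dependent spread). PCNA, the sliding clamp of DNA polymerases, was at 9.19 and 9.14 in shControl cells and at 8.63 and 8.73 in FDXR sh434 cells, a log2 fold change of -0.48 (adjusted p = 0.118, and 0.00225). For both genes the FDXR sh434 arrays were below the shControl arrays. Also listed were the helicase gene ASCC3, at 0.25, and TRIM32, at 0.10, a ubiquitin ligase gene rather than a repair gene. Both passed in neither fit.

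Among 9 measured p53 targets of cell cycle arrest, 2 were higher and 0 lower with the signal-dependent spread, and the list median was -0.07. The 2 genes are 22.2% of the list, beside 7.42% of all named genes higher and 3.88% lower. PLK2, a polo-like kinase, was at 9.23 and 9.16 in shControl cells and at 9.90 and 9.80 in FDXR sh434 cells, a log2 fold change of 0.66 (adjusted p = 0.0723 from limma, and 0.000303 with the signal-dependent spread). This call was kept without any 1 array. TRIAP1, a small mitochondrial protein that restrains apoptosis, had a log2 fold change of 0.37 (adjusted p = 0.166, and 0.0149). Cyclin G1 (CCNG1), at -0.15, and stratifin (SFN), at -0.07, passed in neither fit.

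FDXR itself belongs to the p53 targets of metabolism and redox defence, of which 11 were measured, with 0 higher and 2 lower with the signal-dependent spread and a median of 0.02. The lower genes are 18.2% of the list, where 3.88% of all named genes were lower and 7.42% higher. PANK1, a pantothenate kinase that starts the synthesis of coenzyme A, had a log2 fold change of -0.51 (adjusted p = 0.1 from limma, and 0.0403 with the signal-dependent spread), a call lost without any one array. SAT1, which acetylates spermidine and spermine, had one of -0.37 (adjusted p = 0.175, and 0.01). The sestrin gene SESN2, at -0.21, and the hydrolase gene CMBL, at -0.06, passed in neither fit. Among 15 measured regulators of p53, 2 were higher and 0 lower with the signal-dependent spread, or 13.3% higher beside 7.42% of all named genes. They were TRIM24, a ubiquitin ligase for p53, at 0.42 (adjusted p = 0.0298), and HIPK2, a kinase that phosphorylates p53, at 0.38 (adjusted p = 0.00968). RPL11, a ribosomal protein that binds MDM2, at -0.00, and USP7, which removes ubiquitin from p53 and MDM2, at -0.06, passed in neither fit.

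**Figure D3:**
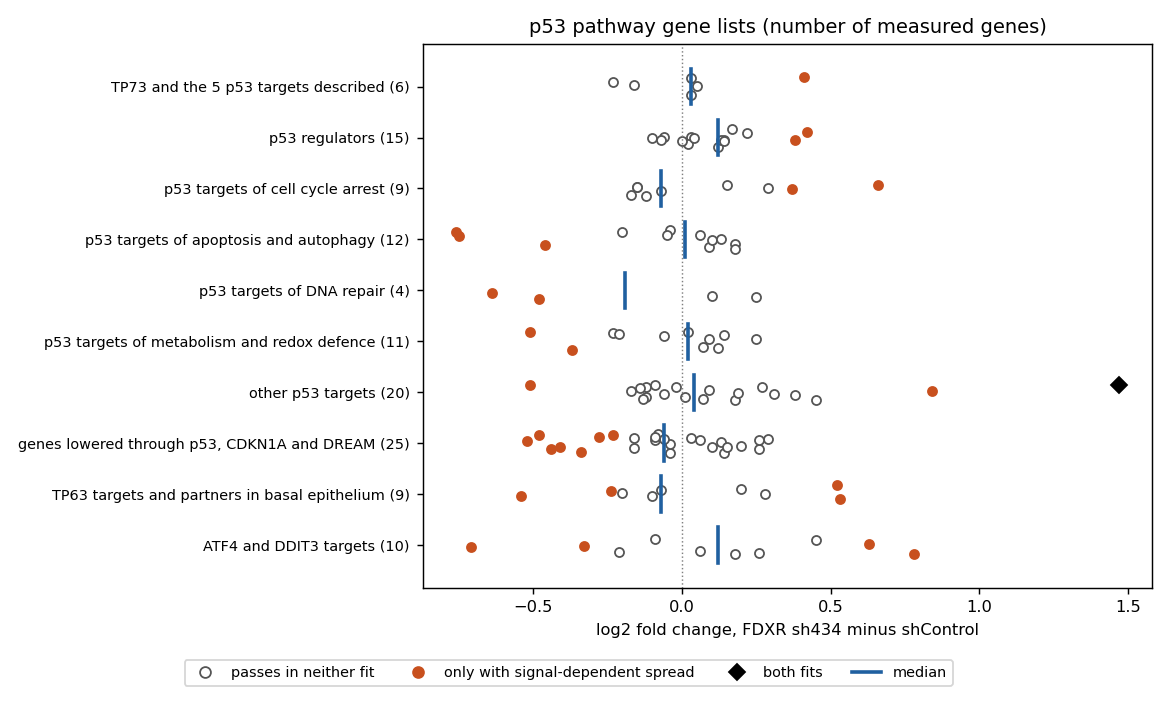
Log2 fold change, FDXR sh434 minus shControl (x axis), of each measured gene of the p53 lists (rows, with the number measured). Open points passed in neither fit, filled points with the signal-dependent spread, the diamond (KITLG, 1.47) in both, and blue lines are medians, which lie between -0.19 and 0.12; vertical scatter within a row has no meaning.

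Active p53 lowers many cell cycle genes indirectly, as CDKN1A lets the DREAM complex repress them. Of 25 measured genes of this kind, 0 passed in limma. At an unadjusted p of 0.05, 1 was higher and 6 were lower, where 12.5% and 7.51% of all named genes were. With the signal-dependent spread 0 were higher and 7 lower (28.0%), where 7.42% and 3.88% of all named genes were. The list median was -0.06. AURKA, a mitotic kinase, was at 7.55 and 7.56 in shControl cells and at 7.02 and 7.05 in FDXR sh434 cells, a log2 fold change of -0.52 (adjusted p = 0.0941 from limma, and 0.0042 with the signal-dependent spread). The phosphatase gene CDC25A had a log2 fold change of -0.48 (adjusted p = 0.0351 with the signal-dependent spread, lost without any one array), the spindle motor gene KIF11 one of -0.44 (adjusted p = 0.00951) and CDK1 one of -0.41 (adjusted p = 0.011). TOP2A and ECT2, the brightest of the list that passed in neither fit, both had one of -0.09. Within the list, 15 values were negative and 10 positive.

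TP63 was not measured, but 9 genes listed as its targets and partners in basal epithelium were. With the signal-dependent spread 2 were higher and 2 lower, each 22.2%, beside 7.42% and 3.88% of all named genes. TRIM29, at 0.53 (adjusted p = 0.0428), and the homeobox gene DLX3, at 0.52 (adjusted p = 0.0173), were higher, and KRT15, at -0.54 (adjusted p = 0.0358), and GRHL2, at -0.24 (adjusted p = 0.0207), were lower. SFN, at -0.07, and the cytolinker gene DST, at -0.20, passed in neither fit. GDF15 is shared with the ATF4 arm of the stress response, of which 10 genes were measured, with 2 higher and 2 lower with the signal-dependent spread and a median of 0.12. DDIT4, an inhibitor of mTORC1 that p53 can induce as well, was at 7.13 and 7.20 in shControl cells and at 7.80 and 7.78 in FDXR sh434 cells, a log2 fold change of 0.63 (adjusted p = 0.0726 from limma, and 0.0015 with the signal-dependent spread). VLDLR, a lipoprotein receptor, had one of 0.78 (adjusted p = 0.0142 with the signal-dependent spread). The serine synthesis genes PSAT1, at -0.71 (adjusted p = 0.00339), and PHGDH, at -0.33 (adjusted p = 0.0453), were lower, and TRIB3, at 0.06, passed in neither fit. Whether GDF15 differed from these genes was not tested.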

How the data were processed

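Total RNA of T47D cells was measured on 4 Affymetrix arrays, 2 per group. The authors deposited log2 signals of 38598 probes on 1 scale across the arrays (medians 4.76 to 4.78, values 0.69 to 13.74). The method of summarising and normalizing these values is not stated in any source used. The tool named in the submitters' processing notes is limma 3.50.3. Without scanner values the signal over background is unknown, and precision is limited by having only 4 arrays. The platform annotation gave 1 gene symbol for 15715 probes, several for 0 and none for 22883. A gene was represented by its probe with the highest mean. The model was fitted in R 4.3.3 with limma 3.58.1 (lmFit, eBayes), on condition alone, unfiltered and without a trend, with 2 residual and 3.45 prior degrees of freedom. Tests were two-sided, and p-values were adjusted across the 38598 probes (Benjamini-Hochberg) with a threshold of 0.05, the package and threshold of the paper's methods. Intervals are 95% from this fit. No set test was run. Alternatives were an intensity trend with robust estimation (the signal-dependent spread), quantile normalization, array weights, named probes only, a block for the replicate number, centring on the median, removal of dim probes, and each array left out with and without the trend. The members and the lists, written from general knowledge, were chosen with earlier results of these data known. In each list, genes named are those that passed in limma (at most 4), at most 4 that passed only with the signal-dependent spread, by size, and the 2 brightest that passed in neither. The markers GATA3, PGR, SPDEF, KRT18, KRT19, KRT5, KRT14, CD14, FN1, VIM and LUM fall outside this rule and were named after their values were seen. Python 3.11.15 and matplotlib 3.10.9 were also used, and sequences came from RefSeq GRCh38.p14.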

Additional observations from a re-analysis of the deposited data

How the results depend on the processing

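Of 96 values of the 6 genes under alternatives, 85 kept the sign and the side of the threshold, 8 changed sign and 3, all of GDF15, newly passed. Quantile normalization turned TP73 to -0.01 and BBC3 to -0.02. With any 1 array left out, with or without the signal-dependent spread, TP73 ranged from -0.10 to 0.17, BAX from -0.04 to 0.15 and BBC3 from -0.12 to 0.19, while GDF15 ranged from 0.30 to 0.53, TP53I3 from -0.20 to -0.12 and TP53INP1 from -0.29 to -0.17.
The count of the 6 genes that were higher was 0 in limma and 1 with the signal-dependent spread, with this spread together with the replicate block, and at an unadjusted p of 0.05; over fits without 1 array it ranged from 0 to 1, and none was lower in any fit. Of the 112 other pathway genes, 1 was higher and 0 lower in limma; 10 and 19 with the signal-dependent spread; 10 and 13 without probes under the median signal, where 102 of them were tested; 6 and 5 with named probes only; and 14 and 17 at an unadjusted p of 0.05. Without 1 array they were 0 and 0 in limma, and with the signal-dependent spread they ranged from 3 to 13 higher and from 1 to 17 lower (13 and 15 without shControl replicate 1, 3 and 2 without FDXR sh434 replicate 1). Among all 38598 probes, 115 were higher and 155 lower in limma, 1937 and 1318 with the signal-dependent spread, 1546 and 995 without probes under the median signal, and 390 and 297 with named probes only. The cause of these differences was not tested.
Arrays of different groups share replicate numbers, but the deviations of same-numbered arrays had a correlation of 0.00196 over all probes, so the numbers were not taken as pairs. With the replicate block limma called 0 of the 112 genes higher and 0 lower, and 0 of the 6 (GDF15 adjusted p = 0.224), and 0 of all probes; with the block and the signal-dependent spread, added after seeing the data like the unadjusted count of pathway genes, 10 were higher and 19 lower. No second named probe exists for the 6 genes, so other probes were not tried.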
